A study of Mus musculus with 2 samples.

Results

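Cells with transcripts of the mesothelial genes Upk3b, Lrrn4 and Wt1 were examined in mouse pancreatic tumours. They were chosen by unique molecular identifier (UMI) counts, one UMI standing for one captured RNA molecule. A cell barcode was selected when it had at least 500 genes, at most 15% mitochondrial UMIs, at least 3 UMIs of the 3 genes together, and none of the leukocyte gene Ptprc or the endothelial gene Pecam1. The rule selected 449 of 22472 kept cells, of which 266 were control cells and 183 knockout cells. Both libraries came from orthotopic tumours grown from implanted KPC pancreatic cancer cells and taken on day 21. Each was made from the pooled tumours of 5 mice, and both groups carried Porcn fl/fl alleles. The control group was made of littermates with genotype Porcn fl/fl, and the knockout group had genotype Csf1r-Cre;Porcn fl/fl, described in the labels as a macrophage-specific Porcn knockout. The Cre is driven by Csf1r, so the deletion is meant for myeloid cells of the host, and the implanted cancer cells are not host cells. The Porcn protein attaches a lipid to Wnt ligands, which they need to leave the cell, and the study asked how tumour cells of all kinds differ once myeloid cells cannot secrete Wnt. With 1 library per group there was no replicate spread and no test between groups. Every interval in parentheses is an exact 95% interval that covers counting error only.

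Mesothelium is the thin epithelial-like layer that covers the pancreas and lines the abdominal cavity. Its cells combine keratins and surface glycoproteins with transcription factors such as Wt1, and they are known to lose epithelial features and take on those of fibroblasts in inflamed or fibrotic tissue. Wt1 alone is less particular to this layer, since mesenchymal cells of several organs also transcribe it.

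Upk3b, Lrrn4, Wt1 and Gpm6a were named as markers of these cells, and the first 3 served in the selection. Upk3b (uroplakin 3B, a membrane protein) lies on chromosome 5 from 136038496 to 136046487 on the plus strand of GRCm38. Lrrn4 (a leucine-rich repeat membrane protein) lies on chromosome 2 from 132868305 to 132880891 on the minus strand. Wt1 (a zinc finger transcription factor) lies on chromosome 2 from 105126529 to 105173616 on the plus strand. Gpm6a (a membrane glycoprotein first known from neurons) lies on chromosome 8 from 54954843 to 55060871 on the plus strand and was not used in the selection. Promoter windows of Upk3b, Lrrn4 and Gpm6a are shown because these 3 genes were detected together in 1 set of the selected cells. They are RefSeq sequences on GRCm38.p6, each from 250 bases before to 50 bases after a transcription start, read 5′ to 3′ on the gene's strand. Capitals mark the core motif of TEAD factors, CATTCC, or GGAATG where it lies on the other strand.
Upk3b, chr5:136038246-136038545, plus strand: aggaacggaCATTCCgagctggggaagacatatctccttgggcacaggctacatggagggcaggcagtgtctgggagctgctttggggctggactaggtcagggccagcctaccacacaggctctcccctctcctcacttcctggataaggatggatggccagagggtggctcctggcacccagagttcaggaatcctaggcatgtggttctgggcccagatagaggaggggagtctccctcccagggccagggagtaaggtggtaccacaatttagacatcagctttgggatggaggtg
Lrrn4, chr2:132880813-132881112, minus strand: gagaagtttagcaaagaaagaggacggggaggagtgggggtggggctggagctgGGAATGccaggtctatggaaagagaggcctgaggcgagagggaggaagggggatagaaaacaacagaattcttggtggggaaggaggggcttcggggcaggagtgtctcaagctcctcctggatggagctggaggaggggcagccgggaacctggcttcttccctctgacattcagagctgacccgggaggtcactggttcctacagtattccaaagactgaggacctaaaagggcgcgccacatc
Gpm6a, chr8:54779184-54779483, plus strand: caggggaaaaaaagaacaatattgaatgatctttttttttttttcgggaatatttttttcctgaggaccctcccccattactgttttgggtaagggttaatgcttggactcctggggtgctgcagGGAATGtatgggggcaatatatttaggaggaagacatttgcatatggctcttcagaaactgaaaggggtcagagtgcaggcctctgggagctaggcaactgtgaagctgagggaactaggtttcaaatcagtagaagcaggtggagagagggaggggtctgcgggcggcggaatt
Each of the 3 windows held the motif once. The Gpm6a window lies at an upstream RefSeq start, before the gene span given above, and the window at the start nearest to that span, chr8:54954478-54954777, held no motif. Of 15 mesothelial marker genes 9 had a window, 12 windows in all, and 4 of the 12 windows held the TEAD core. Among all 32851 promoter windows of that length, 14.7% held it. A core motif of WT1, GTGGGAG or CTCCCAC on the other strand, was found in 1 of the 12 windows (of Dmkn) and in 9.73% of all windows. A match describes the letters of these windows and is not a binding site.

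The control library held 13766 barcodes and 173934025 UMIs, and the knockout library held 12251 barcodes and 137527647 UMIs. After the cell filter 11664 and 10808 cells were kept, with medians of 12235 and 10321 UMIs per cell. The 2 libraries shared 46 barcodes, and no selected barcode was selected in both. Scrublet called 148 control and 341 knockout cells doublets, of which 10 and 7 were selected cells. Labels describe the material as tumour-infiltrating cells, yet cells with Krt19 and Cdkn2a, counted here as tumour cells, made up 63.5% of the kept control cells and 42.1% of the kept knockout cells. In cells with both Ptprc and Csf1r the targeted gene Porcn had 13 UMIs over 278 control cells, or 4.97 UMIs per 1000000 (CPM; 2.65 to 8.50). It had 7 UMIs over 448 knockout cells, or 1.83 CPM (0.736 to 3.77). A 3′ read can lie outside the deleted part of a gene, so these counts are only a partial check of the genotype.

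The selected cells were not of 1 kind. Wt1 was the only one of the 3 genes in 65.0% of the control cells (173 of 266) and 78.7% of the knockout cells (144 of 183). Those cells carried fibroblast genes, so 3 sets were described apart, a division made after the values had been seen. The Upk3b set holds cells with a Upk3b UMI, 50 in control and 35 in knockout. The Lrrn4 set holds cells with Lrrn4 and no Upk3b, 43 in control and 4 in knockout. The Wt1 set holds cells with Wt1 alone.

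In the Upk3b set the mesothelial genes outside the selection were present together. Gpm6a, which the rule did not use, was detected in 35 of 50 control and 32 of 35 knockout cells, at 227 CPM (197 to 260) and 473 CPM (409 to 544). Leukocytes with Ptprc, which should lack Gpm6a, held a UMI of it in 1.02% and 0.943% of cells. The Wt1 set held 16 Gpm6a UMIs in control, 4.24 CPM, and 0 UMIs in knockout. The 12 mesothelial markers outside the selection summed to 4263 CPM (4131 to 4398) and 4463 CPM (4263 to 4671) in the Upk3b set, against 353 and 556 CPM in the Wt1 set and 358 and 632 CPM in fibroblasts, with the control value first here and in every pair below. The sum of 8 fibroblast markers, leaving out the Pdgfra and Col1a1 that selected the fibroblasts, ran the other way. It was 7697 and 12668 CPM in the Upk3b set, 27470 and 29158 CPM in the Wt1 set and 35027 and 24401 CPM in fibroblasts. Of the 556 CPM of mesothelial markers in the knockout Wt1 set, 429 CPM were Aldh1a2. In knockout fibroblasts 1 marker supplied 508 of the 632 CPM. By the 12 markers outside the selection the label of mesothelial cells fits the Upk3b set, while the Wt1 set lay near the fibroblasts and is called here by the gene that selected it. For the comparison, fibroblasts were kept cells with at least 1 Pdgfra and 5 Col1a1 UMIs and none of the 3 selecting genes, 204 in control and 203 in knockout. Tumour cells had at least 3 Krt19 UMIs and 1 Cdkn2a UMI, no Pdgfra and none of the 3 genes, 7406 and 4553. Both classes also lacked Ptprc and Pecam1.

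**Figure D1:**
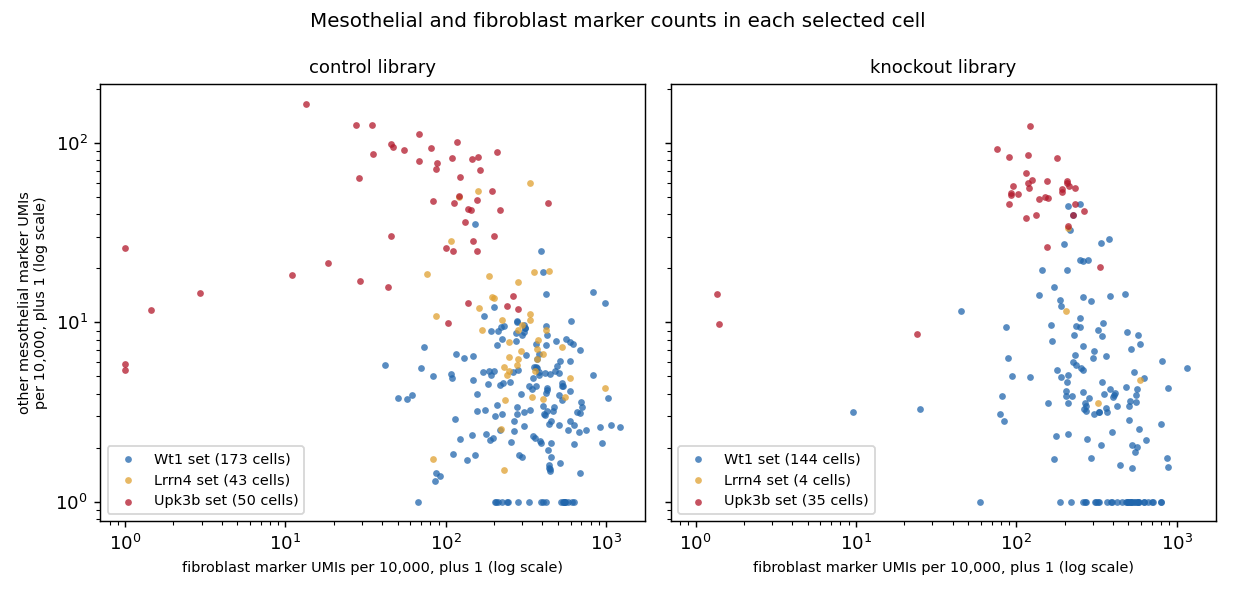
Each point is 1 selected cell of the control (left) or knockout (right) library. The horizontal axis gives UMIs of 10 fibroblast markers and the vertical axis UMIs of the mesothelial markers outside the selection, per 10000 UMIs of the cell plus 1, on log scales. Cells of the Upk3b set (50 and 35) sit above most cells of the Wt1 set (173 and 144).

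Cell by cell, the mesothelial markers outside the selection had a median of 45.5 UMIs per 10000 in control cells of the Upk3b set and 51.4 in knockout cells. The medians were 2.74 and 2.62 in the Wt1 set and 1.78 and 3.29 in fibroblasts. The Lrrn4 cells (43 and 4) lay between the Wt1 and Upk3b sets and nearer to the Wt1 set, at 6.82 and 7.14. Their 12 markers outside the selection summed to 876 and 757 CPM. In control, Nkain4 was found in 90.7% of the Lrrn4 set, 90% of the Upk3b set and 47.4% of the Wt1 set. For Pkhd1l1 these shares were 69.77%, 90% and 13.87%. Gpm6a lay nearer to the Wt1 set, at 13.95%, 70% and 6.358%, as did Upk1b, at 23.26%, 82% and 6.358%. Over all selected cells of a library the mesothelial and fibroblast scores per cell had a Spearman correlation of -0.43 in control (266 cells) and -0.58 in knockout (183 cells). Within the Upk3b set it was -0.01 (50 cells) and -0.03 (35 cells). Cells of a library share its depth, and these values are descriptions.

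Cells with fibroblast genes lay on both sides of the selection limit and also far above it. Of the 61 control cells with exactly 3 UMIs of the 3 genes, 9.84% held Upk3b and 96.7% held Dcn, a collagen-binding proteoglycan of fibroblasts. Of the 72 control cells with 2 UMIs, just outside the rule, the shares were 18.1% and 87.5%. In knockout the 59 cells with 3 UMIs held Upk3b in 1.69% and Dcn in 98.3%, and the 92 cells with 2 UMIs in 2.17% and 98.9%. Cells with 10 or more UMIs of the 3 genes held Upk3b in 43.3% of 67 control cells and 84.8% of 33 knockout cells. Dcn was found in 100% of these cells in each library, and Pdgfra in 62.7% and 60.6%. In fibroblasts taken with no limit on the 3 genes, a Wt1 UMI was found in 58.0% of 493 control and 62.9% of 553 knockout cells, at median depths of 15200 and 10170 UMIs. Leukocytes with Ptprc, which should lack Wt1, held it in 0.847% of 1181 and 0.916% of 3713 cells, at median depths of 3914 and 4010 UMIs.

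Within the Upk3b set a few cells had neither Lrrn4 nor Wt1. There were 6 such cells in control, of which 0 held Gpm6a, 6 held Krt19 and 5 held the tumour transcript Cdkn2a. The 3 such knockout cells held Gpm6a in 1, Krt19 in 3 and Cdkn2a in 2. Of the other 44 control and 32 knockout cells, Gpm6a was found in 35 and 31, Dcn in 44 and 32, and Cdkn2a in 11 and 1. Cells with Cdkn2a were 32.0% of the Upk3b set in control and 8.57% in knockout. They were 49.7% and 23.6% of the Wt1 set, and 30.4% and 15.3% of the comparison fibroblasts. The part of tumour RNA in their profiles was not tested, and results that rest on keratins or antigen presentation are also given without them.

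Among kept cells 2.28% were selected in control (2.02 to 2.57) against 1.69% in knockout (1.46 to 1.95), a ratio of 0.743 (0.612 to 0.900). The Upk3b set had shares of 0.429% (0.318 to 0.565) and 0.324% (0.226 to 0.450), a ratio of 0.755 (0.476 to 1.19) that counting error alone does not separate from 1. The Wt1 set was 1.48% (1.27 to 1.72) and 1.33% (1.13 to 1.57), a ratio of 0.898 (0.715 to 1.13). The Lrrn4 set had shares of 0.369% (0.267 to 0.496) and 0.0370% (0.0101 to 0.0947), with a ratio of 0.100 (0.0262 to 0.276). Selected control cells were deeper, with a median of 18333.5 UMIs against 11539, and depth bears on a rule that needs 3 UMIs. The ratio of all selected cells ran from 0.447 (0.294 to 0.666), with at least 2 of the 3 genes required, to 1.10 (0.868 to 1.40), without cells holding Cdkn2a. It was 0.494 (0.372 to 0.652) with a limit of 5 UMIs, 0.904 (0.646 to 1.26) after thinning every cell to 5000 UMIs, which left out shallower cells, and 1.02 (0.837 to 1.23) as a share of cells without Ptprc. The Upk3b set had a ratio of 1.16 (0.662 to 2.01) after thinning, 1.02 without cells holding Cdkn2a and 1.03 among cells without Ptprc. The Wt1 set went from 0.480 (0.322 to 0.704) with a limit of 5 UMIs to 1.37 (1.02 to 1.83) without cells holding Cdkn2a. The Lrrn4 set had 0.198 (0.0217 to 0.873) after thinning, so the direction of the share held for the Lrrn4 set under every setting run and for no other set.

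**Figure D2:**
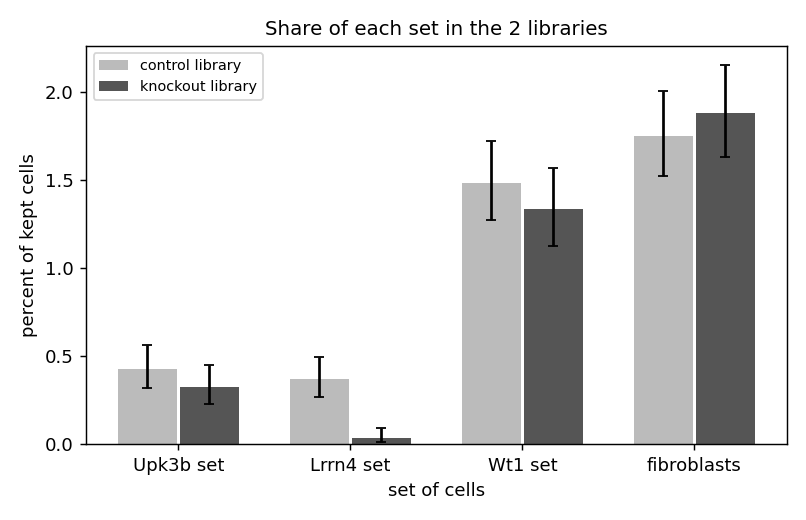
Bars give the percent of kept cells in each set for the control (light) and knockout (dark) library, and error bars are exact 95% binomial intervals. The intervals of the Upk3b and Wt1 sets overlap between libraries, and those of the Lrrn4 set (43 and 4 cells) do not.

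Surface and lubricating proteins of mesothelium marked the Upk3b set in both libraries. Msln (mesothelin, a surface glycoprotein that binds the mucin Muc16) had 630 CPM (579 to 683) and 463 CPM (400 to 534), and 26.0 and 18.0 CPM in the Wt1 set. Muc16 itself had 442 CPM (400 to 487) and 420 CPM (360 to 487), while the Wt1 set held 1 UMI in control and 0 in knockout. The knockout Upk3b set was therefore at least 272-fold higher in Muc16 than the floor of 3 counts in the Wt1 set. The control ratio was 1668 (298 to 66024) and rests on that 1 UMI. Gpm6a was 53.5-fold higher in control (32.2 to 95.4) and at least 307-fold higher in knockout. Upk1b, another uroplakin, had 513 and 411 CPM in the Upk3b set against 9.54 and 2.57 CPM. Prg4 (lubricin, which coats serosal and joint surfaces) had 410 and 96.0 CPM against 16.4 and 10.8 CPM.

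Of the 13 surface and glycocalyx genes with at least 20 UMIs, 10 were 2-fold or more higher in the Upk3b set and 1 lower in control, with a median log2 ratio of 2.48. In knockout 10 were higher and 0 lower, with a median of 2.99. Over all genes the share at least 2-fold higher was 9.52% in control and 10.4% in knockout, and the share at least 2-fold lower was 9.95% and 14.3%. The 12 mesothelial markers outside the selection had medians of 4.61 and 4.94, with 11 higher in each library, 0 lower in control and 1 (Aldh1a2) lower in knockout. Without cells holding Cdkn2a the surface list had medians of 4.28 and 3.66. Thinned to 5000 UMIs, Gpm6a was found in 54.8% of 42 control cells of the Upk3b set (38.7 to 70.2) and 73.3% of 30 knockout cells (54.1 to 87.7), against 70.0% and 91.4% unthinned. It was found in 0 of 167 and 0 of 135 thinned cells of the Wt1 set, with upper bounds of 2.19% and 2.70%.

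**Figure D3:**
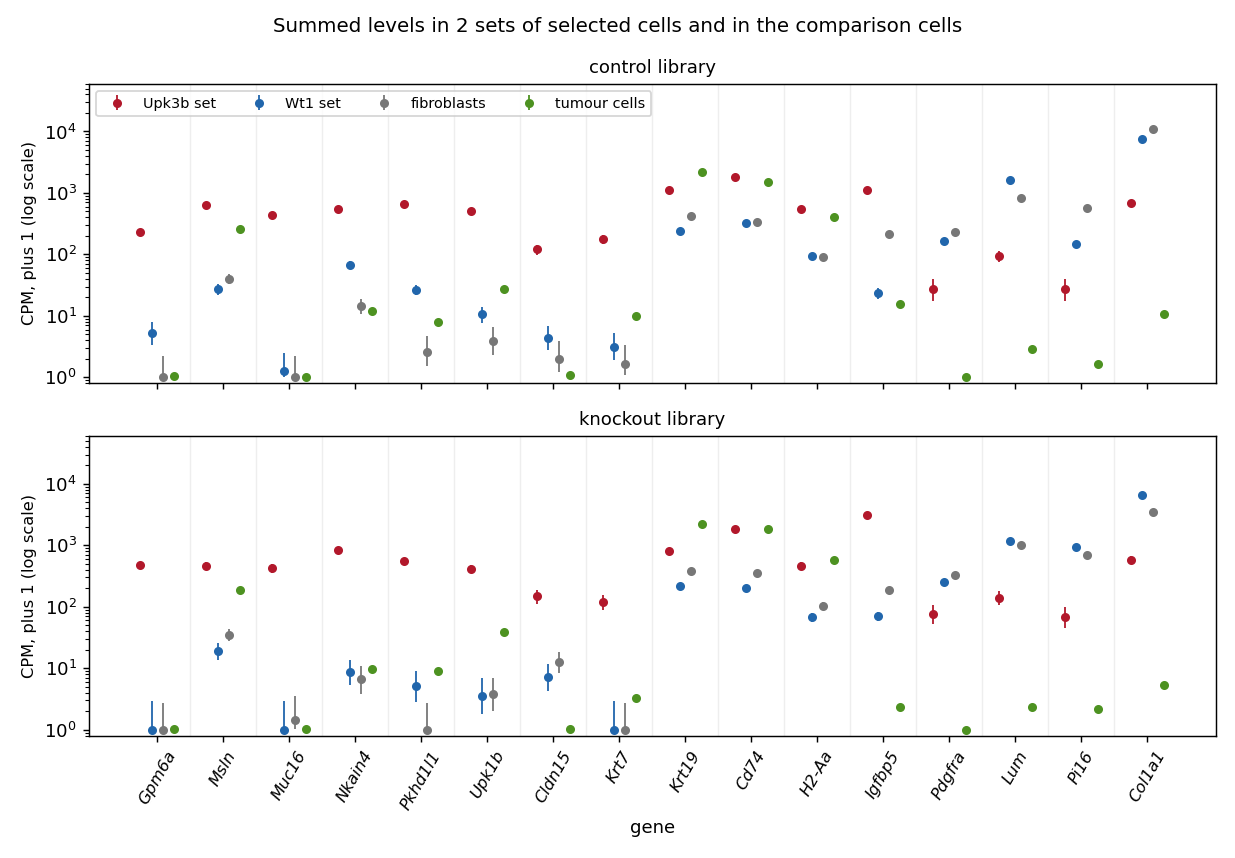
Points give the summed level of 16 genes in CPM plus 1 on a log axis, in the Upk3b set, Wt1 set, fibroblasts and tumour cells of the control (top) and knockout (bottom) library, with exact 95% Poisson intervals. From Gpm6a to Krt7 the Upk3b set lies highest in each library, and for Pdgfra, Lum, Pi16 and Col1a1 it lies below the Wt1 set and the fibroblasts.

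Keratins, the intermediate filaments of epithelia, were also higher in the Upk3b set. Krt19 had 1099 CPM (1033 to 1169) and 819 CPM (734 to 910), against 240 and 216 CPM in the Wt1 set and 2168 and 2229 CPM in tumour cells, where it served in their selection. Krt7 had 175 and 118 CPM in the Upk3b set, and 8 and 0 UMIs in the Wt1 set. Of 12 keratin and junction genes 9 were 2-fold or more higher than in the Wt1 set and 1 (Cdh2, N-cadherin) lower in control. Of 10 in knockout 6 were higher and 0 lower, and the medians were 1.94 and 1.47. The carcinoma genes Cldn4 and Cldn7 had 0 UMIs in the Upk3b set of each library, and Epcam had 4 and 0 UMIs. Tumour cells here had little of them too, with Epcam at 3.53 and 4.36 CPM. The 10 epithelial markers summed to 3355 and 2315 CPM in the Upk3b set and to 7054 and 7182 CPM in tumour cells. Without cells holding Cdkn2a, Krt19 was 1167 and 758 CPM in the Upk3b set and 46.2 and 27.4 CPM in the Wt1 set. Other keratins lost more in the Upk3b set, with Krt18 going from 987 to 479 CPM in control and from 807 to 137 CPM in knockout. Krt8 went from 832 to 383 CPM and from 442 to 79.1 CPM, and the cadherin Cdh1 from 95 to 8 UMIs and from 11 to 0. Against the Wt1 set 8 of 10 and 6 of 9 genes of the list stayed 2-fold or more higher, with medians of 3.68 and 2.10.

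Transcription factors of mesothelium divided between the sets. Gata5, a factor of serosal and heart lineages, had 32.6 and 55.2 CPM in the Upk3b set, and 3.71 CPM and 0 UMIs in the Wt1 set. Bnc1 (basonuclin, a zinc finger factor) had 47.8 and 74.4 CPM against 6.09 and 1.54 CPM. Gata6 was at 247 and 243 CPM in the Upk3b set and at 244 and 113 CPM in the Wt1 set. Aldh1a2, the enzyme that makes retinoic acid in embryonic mesothelium, was at 148 and 115 CPM in the Upk3b set and at 149 and 429 CPM in the Wt1 set. Of 11 factors with enough counts 5 were higher and 0 lower in control, with a median of 0.42. Of 9 in knockout 4 were higher and 2 lower, with a median of -0.38. Without cells holding Cdkn2a 2 of 7 were higher and 0 lower in control, with a median of 0.007. In knockout 4 of 9 were then higher and 2 lower, with a median of -0.34.

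Matrix and myofibroblast genes were lower in the Upk3b set. Of 19 genes of mesothelial-mesenchymal transition with enough counts in control, 16 were 2-fold or more lower than in the Wt1 set and 0 higher, with a median of -2.51. In knockout 14 of 18 were lower and 0 higher, with a median of -1.97. Placing 1 control gene with a count of 0 at its bound moved the first median to -2.46. Col1a1, the main fibrillar collagen chain, had 697 CPM (644 to 753) and 581 CPM (510 to 659) against 7606 and 6599 CPM. Lum (lumican, a collagen-binding proteoglycan) had 92.3 and 139 CPM against 1627 and 1167 CPM. Dcn was nearer, at 3254 and 7429 CPM against 6729 and 7395 CPM, and was found in 47 of 50 and 34 of 35 cells of the Upk3b set.

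Antigen presentation genes were higher in the Upk3b set in both libraries. Cd74, the invariant chain of MHC class II, had 1802 CPM (1716 to 1890) and 1815 CPM (1688 to 1949), against 324 and 201 CPM in the Wt1 set. It was found in 47 of 50 and 35 of 35 cells. H2-Aa, a class II chain, had 538 and 468 CPM against 93.5 and 66.9 CPM. Of the 9 genes of the antigen-presenting fibroblast list 7 were higher in control, as were 7 of 8 in knockout, with 0 lower. Medians were 2.17 and 2.77. Ptprc was 0 by selection, and the 5 other leukocyte markers had 2 UMIs in control and 6 in knockout in the Upk3b set, with 3 and 2 of them at 0, and 60 and 17 UMIs in the Wt1 set. Tumour cells also held Cd74, at 1489 and 1827 CPM, and H2-Aa, at 409 and 571 CPM. Without cells holding Cdkn2a, Cd74 was 1644 and 1759 CPM in the Upk3b set and 376 and 51.8 CPM in the Wt1 set, and the list had 6 of 8 and 7 of 8 genes higher, with medians of 2.12 and 3.88.

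Interferon response genes lay on the same side. Of 18 type I interferon response genes, 16 were 2-fold or more higher in the Upk3b set than in the Wt1 set in control and 14 in knockout, with 0 lower and medians of 1.39 and 1.84. Isg15, a ubiquitin-like modifier, had 297 and 478 CPM against 133 and 75.6 CPM. Without cells holding Cdkn2a, 9 of 15 were higher in control and 12 of 16 in knockout, with medians of 1.12 and 1.62. Isg15 was then 177 against 149 CPM in control and 167 against 33.3 CPM in knockout. The control log2 ratio of Ifit3, an antiviral protein, went from 3.31 to 0.44, and that of Rsad2 (viperin) from 4.62 to 0.77. MHC class I genes were higher in 7 and 6 of 11, with medians of 1.10 and 1.17, and in 8 of 11 and 7 of 10 without cells holding Cdkn2a, with medians of 1.09 and 1.48. H2-K1, a classical class I heavy chain, had 2562 and 2571 CPM against 951 and 768 CPM.

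**Figure D4:**
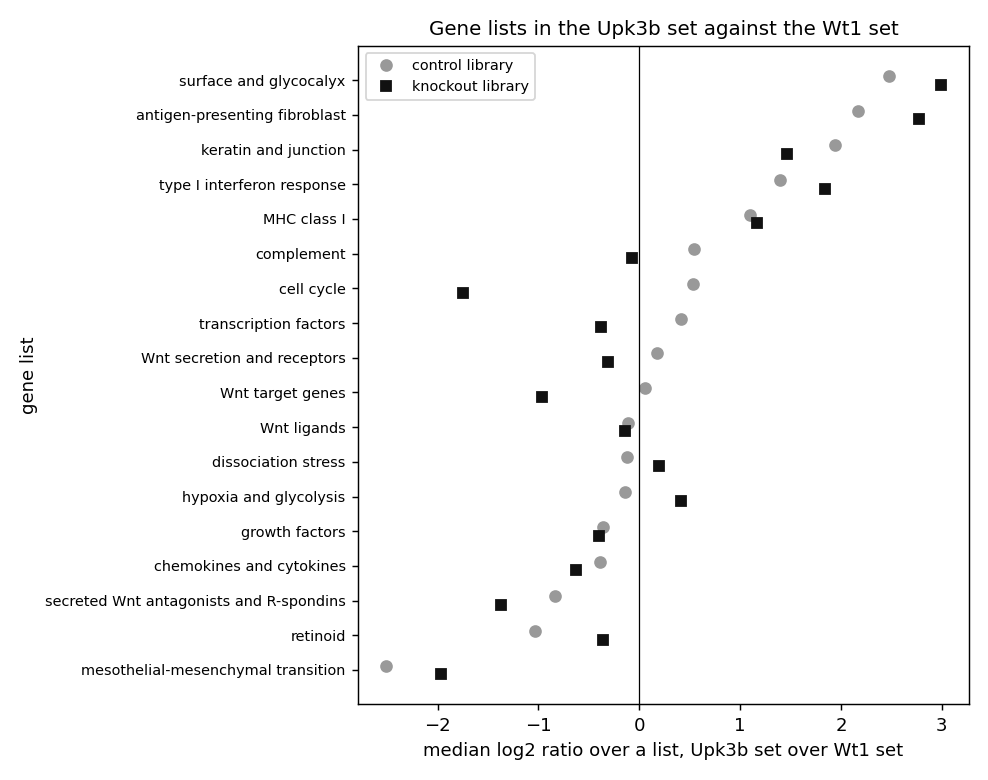
Each row is 1 of 18 gene lists, and points give the median log2 ratio of its genes, Upk3b set over Wt1 set, in the control (grey circles) and knockout (black squares) library. The surface, antigen-presenting, keratin, interferon and MHC class I lists lie above 1 in both, and the mesothelial-mesenchymal transition list lies below -1.9 in both.

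Against fibroblasts, the selected cells as a whole were close for most genes. The comparison fibroblasts were shallower, with medians of 11953.5 and 9151 UMIs against 18333.5 and 11539 in selected cells. The part of depth in this comparison was not tested. The share of genes at least 2-fold higher in selected cells was 6.07% in control and 4.46% in knockout, and the share at least 2-fold lower was 6.02% and 2.14%. Of the mesothelial markers outside the selection 10 of 12 were 2-fold or more higher in control and 11 of 12 in knockout, with 0 lower. In the Wt1 set alone these markers summed to 353 and 556 CPM, against 358 and 632 CPM in fibroblasts. Nkain4, which encodes a protein that binds a sodium pump subunit, led the genes higher in both libraries. It stood at 176 CPM in selected control cells against 13.3 CPM in control fibroblasts, and at 155 against 5.57 CPM in knockout, ratios of 13.2 (9.69 to 18.6) and 27.8 (15.7 to 54.3). By set, Nkain4 had 557 and 828 CPM in the Upk3b set and 67.3 and 7.72 CPM in the Wt1 set, the last near the knockout fibroblasts. Plxna4, a semaphorin receptor, followed with ratios of 5.54 and 6.35. Ptger3, a prostaglandin E2 receptor, had ratios of 6.89 and 4.44. Rspo1, a secreted enhancer of Wnt signalling, had ratios of 3.24 and 3.40. Wt1os, which is transcribed beside Wt1 on the other strand, was also higher, and reads of the 2 genes may not be separable here.

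Genes lower in selected cells were led by Apod, Opcml and Penk with Thy1 and Gsn beside them. Thy1, a fibroblast surface protein, had 27.1 CPM in selected control cells against 122 CPM in fibroblasts, and 23.9 against 75.2 CPM in knockout. Apod, an apolipoprotein of the lipocalin family, had 5.31 against 377 CPM in control and 23.9 against 117 CPM in knockout. Gsn (gelsolin, an actin-severing protein) had 460 against 1955 CPM and 1154 against 3408 CPM, and Penk, the enkephalin precursor, had 15.9 against 58.8 CPM and 64.3 against 273 CPM. Cell cycle genes had no single direction. In control 7 of 16 were at least 2-fold lower than in fibroblasts, with a median of -0.99, and in knockout 8 of 10 were higher, with a median of 2.45. The knockout counts rested largely on few cells. In the knockout Upk3b and Wt1 sets 8 cell cycle genes had at least 20 UMIs. Fewer than 3 had so many without the 7 selected doublet calls, or without cells holding Cdkn2a.

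Against tumour cells the share of genes at least 2-fold higher in selected cells was 19.1% in control and 24.6% in knockout, and the share at least 2-fold lower was 12.7% and 13.5%. Complement genes were higher in 11 of 12 in each library, with 0 lower in control and 1 in knockout, and medians of 5.00 and 7.14. Slit3, a secreted guidance protein, had 1226 CPM in selected control cells against 0.836 CPM in tumour cells, and 1658 against 0.893 CPM in knockout. Osr1, a transcription factor of embryonic mesoderm, had 105 against 0.0760 CPM and 122 against 0.116 CPM. Pdx1, a factor of pancreatic epithelium, was lower, at 3.54 against 43.1 CPM and 1.65 against 38.6 CPM. Muc5b, a secreted mucin, had 47.8 against 599 CPM and 70.0 against 554 CPM. Slurp1, a secreted epithelial peptide, had 23.0 against 418 CPM and 35.0 against 459 CPM.

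The remaining comparison set the knockout library against the control library. Within all selected cells 9.34% of genes with at least 20 UMIs were 2-fold or more higher in knockout and 4.77% lower, in the Upk3b set 5.86% and 6.29%, and in the Wt1 set 9.7% and 5.31%. The sets had unequal shares in the libraries, so values are given by set. Depth differed in the same direction in both sets, with median UMIs of 14021 and 10380 in the Upk3b set and 18684 and 11940 in the Wt1 set. Its part in the ratios was not tested.

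Saa3, an acute-phase serum amyloid gene, was lower in knockout in each set. Cells of the Upk3b set held 2577 UMIs over 25 of 50 control cells, or 2797 CPM (2690 to 2907), and 42 UMIs over 4 of 35 knockout cells, or 101 CPM (72.7 to 136). Its log2 ratio was -4.76 (-5.27 to -4.36). It went from 1985 to 85.4 CPM in the Wt1 set, a log2 ratio of -4.53, and in fibroblasts from 1916 to 99.4 CPM, a log2 ratio of -4.26. Slpi, an inhibitor of neutrophil proteases, had 3386 CPM (3268 to 3507) and 771 CPM (689 to 860) in the Upk3b set, and 619 and 3.60 CPM in the Wt1 set. Prg4 differed in the Upk3b set, from 410 CPM (370 to 454) to 96.0 CPM (68.6 to 131), and was found in 37 of 50 and 11 of 35 cells. Cd74 stood almost level in the Upk3b set, with a ratio of 1.01 (0.923 to 1.10). In the Wt1 set its ratio was 0.621 (0.553 to 0.696), and 0.138 (0.106 to 0.177) without cells holding Cdkn2a.

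Mesothelial genes of the Upk3b set went both ways. Gpm6a was higher in knockout by a ratio of 2.09 (1.71 to 2.55), and Rspo1 by 2.84 (2.26 to 3.58), from 149 to 423 CPM. Nkain4 went from 557 to 828 CPM, a ratio of 1.49 (1.29 to 1.71). Msln had a ratio of 0.736 (0.622 to 0.868) and Muc16 of 0.951 (0.792 to 1.14). Of the 12 mesothelial markers outside the selection 2 (Gpm6a and Rspo1) were 2-fold or more higher and 1 (Prg4) lower, with a median of 0.12. In the Wt1 set Nkain4 was lower in knockout, 254 UMIs against 15, a ratio of 0.115 (0.0633 to 0.193). Of its 10 mesothelial markers with enough counts 2 were higher (Rspo1 and Aldh1a2) and 4 lower (Bnc1, Nkain4, Pkhd1l1 and Upk1b). Fibroblast markers in the Upk3b set were higher in 4 of 8 (Pdgfra, Dcn, Fbln1 and Pi16) and lower in 0. Cells holding Cdkn2a were a larger share of the Upk3b set in control (32.0%) than in knockout (8.57%). Without them Gpm6a had a ratio of 1.62 (1.31 to 2.01), no longer 2-fold, Rspo1 of 2.27 (1.77 to 2.93) and Nkain4 of 1.15 (0.989 to 1.33). Muc16 then had 0.707 (0.586 to 0.851), the median of the 12 markers was -0.30, and 3 of 8 fibroblast markers were higher, without Pi16.

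**Figure D5:**
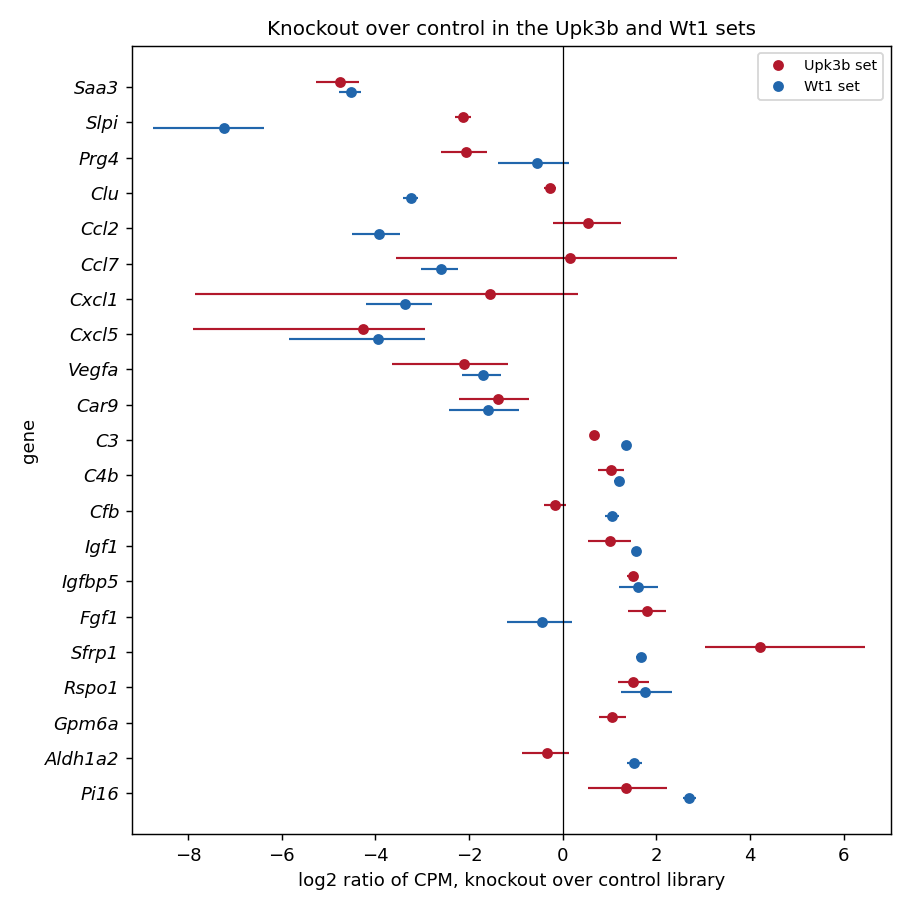
Points give the log2 ratio of CPM, knockout over control library, for 21 genes in the Upk3b set (red) and the Wt1 set (blue), with exact 95% intervals. A gene without UMIs in the knockout Wt1 set (Gpm6a) has no blue point. Saa3 lies at -4.76 and -4.53. Ccl2 and Clu lie far apart between the sets. Without cells holding Cdkn2a, not drawn here, Ccl2 was -1.71 and -4.31 and Clu -1.30 and -3.95 in the Upk3b and Wt1 sets.

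C3 and C4b of the complement system were higher in knockout in both sets. C3, the central complement protein, had 5176 CPM (5030 to 5325) and 8279 CPM (8005 to 8560) in the Upk3b set, a ratio of 1.60 (1.53 to 1.67). In Wt1 set cells C3 went from 2279 to 5845 CPM, a ratio of 2.56 (2.49 to 2.64), and in fibroblasts from 3070 to 6266 CPM. C4b, a component of the classical pathway, had ratios of 2.05 (1.70 to 2.48) and 2.30 (2.13 to 2.47) in the Upk3b and Wt1 sets. Of 11 complement genes with enough counts in the Upk3b set 2 were 2-fold or more higher and 0 lower, with a median of 0.62. In the Wt1 set 7 of 12 were higher and 1 lower, with a median of 1.03. The lower gene was Clu (clusterin, a complement inhibitor), from 1648 to 174 CPM, a ratio of 0.106 (0.0943 to 0.118). Clu had 2047 and 1702 CPM in the Upk3b set, and leaving out the 3 knockout cells with Cdkn2a left 276 of its 709 UMIs. With such cells left out of both libraries it had 2073 and 840 CPM there, a ratio of 0.405 (0.353 to 0.464), and C3 had ratios of 1.27 (1.21 to 1.33) and 1.95 (1.89 to 2.02) in the Upk3b and Wt1 sets. Of the complement genes in the Wt1 set 2 of 12 then stayed 2-fold or more higher.

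Several chemokines were lower in the knockout Wt1 set. Ccl2, a monocyte attractant, had 273 CPM (257 to 290) and 17.5 CPM (12.1 to 24.4), and Ccl7, which binds overlapping receptors, 187 and 30.4 CPM. Cxcl1, a neutrophil attractant, had 107 and 9.78 CPM. Ccl2 in the Upk3b set was 46.7 CPM (33.8 to 62.9) in control, spread over 11 cells, and 67.2 CPM (44.7 to 97.2) in knockout, held by 3 cells. It turned without cells holding Cdkn2a, with 17 control and 3 knockout UMIs, a ratio of 0.242 (0.0455 to 0.838), and in the Wt1 set it stayed at 0.0471 (0.0255 to 0.0801). Of 17 chemokines and cytokines in the Wt1 set 6 were 2-fold or more lower and 2 higher, and of 9 in the Upk3b set 3 were lower (Cxcl5, Cxcl9 and Cxcl13) and 0 higher. The 188 control UMIs of Cxcl13 in the Upk3b set all came from 1 cell, which held Cdkn2a, and Cxcl9 had 1 control and 6 knockout UMIs without such cells. Monocyte and macrophage markers in the Wt1 set summed to 44.0 CPM in control and 24.7 CPM in knockout, and in the Upk3b set to 20.6 and 12.0 CPM. Their part in the chemokine values was not tested.

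Wnt ligands were transcribed in these cells in both libraries. The 19 ligands summed to 516 CPM (470 to 564) and 463 CPM (400 to 534) in the Upk3b set, with overlapping intervals, and to 538 CPM (515 to 562) and 353 CPM (328 to 381) in the Wt1 set. Fibroblasts had 193 and 215 CPM, and tumour cells 130 and 91.2 CPM. Wnt4, a ligand of embryonic mesothelium and kidney, supplied most UMIs, with 351 of 475 in the control Upk3b set and 137 of 193 in the knockout set. It stood at 381 CPM (342 to 423) and 329 CPM (276 to 389) there, at 389 and 222 CPM in the Wt1 set, and at 47.1 and 108 CPM in fibroblasts. Wls, the carrier that brings Wnt proteins to the cell surface, had 363 and 290 CPM in the Upk3b set and 301 and 326 CPM in the Wt1 set. Porcn itself had 10 and 4 UMIs in the Upk3b set. In the Wt1 set it had 27 UMIs, 7.15 CPM (4.71 to 10.4), in control and 48 UMIs, 24.7 CPM (18.2 to 32.7), in knockout.

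Some secreted regulators of the pathway differed between the libraries. Sfrp1, a secreted Wnt antagonist, had 364 and 1152 CPM in the Wt1 set, a ratio of 3.17 (2.96 to 3.39). The Upk3b set held 4 UMIs over 4 control cells and 41 UMIs over 5 knockout cells. Rspo3, which like Rspo1 enhances Wnt signalling, had 53 and 112 UMIs in the Wt1 set, a ratio of 4.10. Of 7 antagonists and R-spondins in the Wt1 set 3 were 2-fold or more higher and 0 lower, and of 6 in the Upk3b set 3 were higher and 2 lower. Of 8 Wnt target genes 3 were higher (Nkd2, Lgr5 and Tnfrsf19) and 0 lower there. Among 5 targets in the Upk3b set 0 were higher and 2 (Myc and Ccnd1) lower. Myc had 20 and 3 UMIs, a ratio of 0.332 (0.0632 to 1.12), and Ccnd1 had 297 and 57. Most of these UMIs lay in cells holding Cdkn2a. Without such cells Myc had 4 and 1 UMIs and Ccnd1 had 32 and 3.

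Growth factor genes were higher in knockout in 3 of 16 in the Upk3b set (Igf1, Fgf1 and Igfbp5) and lower in 1 (Vegfa), and higher in 9 and lower in 3 of 20 in the Wt1 set. Igfbp5, a binding protein for insulin-like growth factors, had 1110 CPM (1043 to 1180) and 3124 CPM (2956 to 3298) in the Upk3b set, a ratio of 2.81 (2.59 to 3.06). The Wt1 set held 22.5 and 68.9 CPM, the latter in 2 of 144 cells. Igf1 had 94.4 and 190 CPM in the Upk3b set and 395 and 1177 CPM in the Wt1 set, ratios of 2.01 (1.46 to 2.76) and 2.98 (2.79 to 3.18), and of 1.73 and 2.04 without cells holding Cdkn2a. Fgf1, a fibroblast growth factor, went from 91.2 to 317 CPM in the Upk3b set, a ratio of 3.48 (2.63 to 4.63), and from 18.5 to 13.4 CPM in the Wt1 set. Vegfa, the vascular endothelial growth factor, went from 81.4 CPM (64.0 to 102) to 16.8 CPM (6.76 to 34.6) in the Upk3b set and from 97.2 to 29.3 CPM in the Wt1 set. Hypoxia genes were 2-fold or more lower in 5 of 11 in the Wt1 set and 1 of 10 in the Upk3b set, with 0 higher in either. Leaving out cells with Cdkn2a, these were 7 of 11 and 3 of 7, with 1 higher in the Wt1 set. Car9, a carbonic anhydrase induced by low oxygen, went from 124 to 45.6 CPM in the Upk3b set and from 30.7 to 9.78 CPM in the Wt1 set. Without cells holding Cdkn2a its 114 and 19 UMIs in the Upk3b set fell to 9 and 2, a ratio of 0.305 (0.0321 to 1.48). In the Wt1 set it then had 28 and 1 UMIs.

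Among the genes with the widest ratios over all selected cells, Col28a1, Slc1a3 and Fgf10 had 0 UMIs in the Upk3b set. Col28a1, a minor collagen chain, had 9 control and 187 knockout UMIs, a log2 ratio of 5.45 (4.64 to 6.75), and 186 of the knockout UMIs lay in the Wt1 set. Gdf10, a growth factor of the TGF-beta family, had 12.9 and 142 CPM, and Fgf10, a growth factor that mesenchyme sends to epithelia, 3.89 and 40.0 CPM. Pi16, a marker of adventitial fibroblasts, had 145 CPM (133 to 158) and 944 CPM (902 to 989) in the Wt1 set. In the other direction Serpinb2, an inhibitor of plasminogen activators, had 568 control UMIs and 0 knockout UMIs, at least 81.3-fold lower, with 447 of the control UMIs in the Wt1 set and 1 in the Upk3b set. Crabp2, a carrier of retinoic acid, had 54.5 and 2.88 CPM. Acta2, the smooth muscle actin of myofibroblasts, had 239 CPM (223 to 255) and 34.5 CPM (26.7 to 43.8) in the Wt1 set, and 38.0 and 38.4 CPM in the Upk3b set.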

How the data were processed

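Single-cell 3′ RNA-seq was analysed from the deposited matrices, which held UMI counts per gene and barcode as the authors deposited them, without normalisation. Cell Ranger 8.0.0 wrote them per the file headers, while the submitters' processing notes name version 3.1.3 and the build mm10. Of 32285 genes 32158 matched GENCODE M21 on GRCm38, the source of gene positions. The control group and the knockout group had 1 library each, so groups were not tested.

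Selected cells, fibroblasts and tumour cells were found by UMI thresholds. The members and gene lists were chosen with earlier results of these data known, and the division into 3 sets after their values had been seen. UMIs were summed over the cells of a set, as CPM of that sum. Log2 ratios used a pseudocount of 1 UMI and genes with at least 20 UMIs. Intervals were exact (Clopper-Pearson, Poisson or conditional binomial) at 95%, and a count of 0 was given a floor of 3 counts over the set. List medians were also taken with such genes at their bound, and a median that moved is given with its new value. Doublets were called by Scrublet in scanpy 1.11.5 (expected rate 0.08) and kept in the main results. Ratios and intervals were tried on simulated Poisson counts of the summed cells. That simulation had no differences between cells, so it cannot show how the intervals behave where few cells hold most UMIs.

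Genes of 18 lists and 12 marker lists could be named. Beyond them, the rule took the 10 highest and 10 lowest knockout over control ratios. These genes needed a UMI in at least 10% of selected cells of the library where they were higher. It also took the 15 highest and 10 lowest genes against fibroblasts and tumour cells in both libraries. The highest needed a UMI in at least 25% of selected cells of each library, and the lowest in at least 25% of the comparison cells. Ratios within the Upk3b and Wt1 sets were also taken without cells holding Cdkn2a, an alternative chosen after seeing the data. Other alternatives changed the cell filter, the marker limit, doublets, tumour transcript, scaling, pseudocount, gene filter and depth. Other tools were python 3.11.15, scipy 1.17.1, numpy 2.4.6, pandas 2.3.3 and matplotlib 3.10.9. Promoter sequences were from RefSeq.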

Additional observations from a re-analysis of the deposited data

How the results depend on the processing

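No paired analysis was possible because each group had 1 library, and no library could be left out. The share of selected cells (2.28% and 1.69%, ratio 0.743) became 2.90% and 2.54% with a marker limit of 2 UMIs, 1.42% and 0.703% (ratio 0.494) with 5, and 0.746% and 0.333% (ratio 0.447) with at least 2 of the 3 genes. It was 1.21% and 1.33% (ratio 1.10) without cells holding Cdkn2a, and 0.941% and 0.850% (ratio 0.904) after thinning to 5000 UMIs. Of cells without Ptprc the knockout share was 2.58% (ratio 1.02). The direction thus turned under the Cdkn2a and Ptprc settings. Their causes were not tested.

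Genes 2-fold or more higher in knockout numbered 1135, and 537 with at least 100 UMIs, 3490 with no filter on low counts and 453 in the Upk3b set. Lower genes numbered 580, and 325 with a pseudocount of 5 UMIs, 266 with at least 100 UMIs and 1089 with no filter. List medians of at least 0.5 numbered 3, and 5 without doublets, 6 with a marker limit of 5, 5 without Cdkn2a cells and 5 in the Wt1 set. Medians of -0.5 or less numbered 1, and 4 without doublets, 4 with a limit of 2, 2 with a limit of 5, 4 with at least 2 genes, 5 without Cdkn2a cells, 2 with at least 100 UMIs, 3 in the Upk3b set and 2 in the Wt1 set.

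Against fibroblasts 219 genes were higher in both libraries (84 with at least 100 UMIs, 463 with no filter) and 86 lower (46 with a marker limit of 2, 153 with 5, 419 with at least 2 genes, 151 without Cdkn2a cells, 42 with at least 100 UMIs, 444 with no filter). Against tumour cells 2250 were higher (3536 with a pseudocount of 5, 1205 with at least 100 UMIs, 7291 with no filter) and 1283 lower (817 with a pseudocount of 5).

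In the Upk3b set alone, a choice made after the data were seen, the log2 ratio of knockout over control turned for these genes that were 2-fold or more over all selected cells: Serpinb2 (0.15), Shisa6 (0.15), Clca3a2 (0.47), D530037P16Rik (0.15), Ccl2 (0.54), Aldh1a2 (-0.34) and Acta2 (0.063). With at least 2 of the 3 genes Aldh1a2 was -0.12. Nkain4, which was not 2-fold over all selected cells, went from -0.18 to 0.58. Serpinb2, Shisa6 and D530037P16Rik had at most 1 UMI in the Upk3b set. Their log2 ratios of 0.15 there come from the pseudocount and show no change of direction. Nkd2, with 0 UMIs in both libraries there, had 1.15 in the same way.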
